A study of Gallus gallus with 4 samples.

Results

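The genes described here encode molecular chaperones and the proteasome of the chick. They were chosen by name, as the rows named HSP followed by a letter or number (HSPG2, a proteoglycan, left out), DNAJA, DNAJB or DNAJC with a number, CCT with a number, TCP1, and PSMA to PSMG with a number. This gave 101 genes on 104 rows, of 17011 genes on 17108 rows in all. Of the 101, 65 are chaperone genes and 36 are proteasome genes. PSMC3IP, whose name begins like a proteasome gene but which encodes a meiotic recombination factor, was not counted as a member.

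RNA was sequenced from the area vasculosa, the vascular zone of the yolk sac that surrounds the chick embryo and makes its earliest blood and vessels. Stage was the only variable the labels give: the 4 groups were HH10, HH11, HH12 and HH13 in the Hamburger-Hamilton series, with 1 library each and no treatment or mutant. The sources used here do not give the strain of the birds, the sex of the embryos, the number of embryos behind a library or whether embryos were pooled. With 1 library per stage no difference has a replicate check, no value carries an SD, and no p-value was computed.

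Chaperones bind unfolded chains and help them reach or keep their folded form. HSP70 proteins take up short exposed stretches with the help of DNAJ co-chaperones and nucleotide exchange factors, HSP90 finishes client kinases and receptors, and the chaperonins enclose a chain in a chamber. The proteasome destroys proteins tagged with ubiquitin: its 20S core holds the cutting sites, and its 19S cap reads the tag, unfolds the protein and feeds it in.

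Values are FPKM, fragments scaled to transcript length and to a library size whose rule is not stated, so levels of different genes can be compared per length. Libraries were compared as differences of log2(FPKM + 1), a scale that damps the differences of low genes, and a difference of at least 1 on that scale is called at least 2-fold. Adjacent steps share a library (HH11 enters 2 of them, as does HH12), so their differences are not independent. Of the 101 members, 97 reached 1 FPKM in at least 1 library, 61 of 65 chaperone genes and 36 of 36 proteasome genes, against 11773 of the 17011 genes in all. The percentages given below as background are over those 11773 genes.

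The libraries differed in ways that bear on these comparisons. Summed over all rows, the libraries held 952203 (HH10), 762831 (HH11), 833686 (HH12) and 889136 FPKM (HH13), so setting all totals equal moves the median difference of all genes by 0.29 for HH11 against HH10 and by -0.11 for HH12 against HH11. The highest single gene held 126367 FPKM in HH10 and no more than 28448.2 in any other library. Scaling by the median ratio over genes, which single high genes hardly move, divided the libraries by between 0.998 and 1.001. Summed globin FPKM was 1625, 292, 15002 and 34093, which is lower in HH11 than in the earlier stage, HH10. Rows on chromosome W summed to 0.0349 FPKM in HH10 and to between 44.9 and 52.3 in the other libraries, and the median difference of genes on Z was -0.51 for HH11 against HH10. In bulk tissue, fewer cells of a type and less RNA per cell cannot be told apart.

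The tissue label was checked against markers. Of 20 listed yolk sac endoderm genes 16 had a row, all of them reaching 1 FPKM in a library, and their summed FPKM was 13750, 5866, 18118 and 51404 from HH10 to HH13. The 17 of 20 endothelial genes with a row (16 reached 1 FPKM) summed to 135, 77.6, 113 and 301. The 12 of 20 erythroid genes with a row (11 reached 1 FPKM) summed to 1819, 375, 15442 and 34910. Among markers of tissues outside the yolk sac, the neural list (10 of 16 with a row) summed to between 32.2 and 79.0 FPKM and the somite list (10 of 12) to between 1.68 and 9.86. Of these, 9 neural and 4 somite genes reached 1 FPKM in a library. The cardiac list (11 of 14 with a row, 9 reaching 1 FPKM) summed to 166, 105, 81.6 and 97.3 FPKM, which is above the endothelial sum in HH10 and HH11. Its more abundant genes were the troponin TNNC1 at 63.4, 38.4, 39.7 and 51.5 FPKM and the myosin light chain MYL3 at 54.0, 39.0, 17.2 and 12.7, while the cardiac factor NKX2-5 was listed at 0 in HH12 and did not exceed 1.79. Of the somite factors, TBX6 measured 4.08, 0.222, 1.07 and 3.83 FPKM, and MYF5 was listed at 0 from HH11 to HH13. The part of the cardiac and somite markers in the members' differences was not tested. Keratins and other epithelial markers (17 of 17 with a row, 16 reaching 1 FPKM) summed to 4458, 7046, 6910 and 6707. The macrophage list (11 of 14 with a row, 6 reaching 1 FPKM) summed to between 8.54 and 30.9 FPKM, with the complement gene C1QB at 0 throughout. The thrombocyte list (9 of 12 with a row, 8 reaching 1 FPKM) summed to between 57.5 and 124.

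Together the 101 members summed to 15090, 16585, 17521 and 13074 FPKM in stage order. As a share of each library's total this was 1.58%, 2.17%, 2.10% and 1.47%. The chaperone genes made up 0.933%, 1.37%, 1.302% and 0.877%, and the proteasome genes 0.652%, 0.802%, 0.800% and 0.593%. Both shares were lower in HH10 and HH13 than in the HH11 and HH12 libraries between them. For the proteasome the HH10 share turns on the library total, since its summed FPKM was 6206, 6117, 6668 and 5273, higher in HH10 than in HH11.

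Most members differed little between stages. The highest and the lowest library lay less than 2-fold apart for 91 of the 97 measured members (background 74.8%), for 55 of 61 chaperone genes and 36 of 36 proteasome genes. The 6 members that spanned 2-fold or more were HSPB1, HSPB8, DNAJC6, HSPH1, HSPA12A and HSP70. In HH11 against HH10, 3 of 97 members were at least 2-fold higher (background 2.17%) and 1 was at least 2-fold lower (background 4.32%). In HH12 against HH11, 1 was higher by that much (background 4.42%) and 0 were lower (background 1.58%). In HH13 against HH12, 1 was higher (background 8.53%) and 2 were lower (background 2.95%). For HH13 against HH10 these numbers were 3 higher (background 9.39%) and 0 lower (background 4.06%). HSPA12A is counted as higher in both HH13 comparisons and is the sole such member against HH12. It was kept only because it reached 1 FPKM in HH13.

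Most chaperone and proteasome genes were lower in HH13 than in HH12, by less than 2-fold. Only 10 of the 97 members had a difference above 0 (background 49.5%), and the median difference was -0.37 over the chaperone genes and -0.32 over the proteasome genes, where that of all genes was -0.00. Of the members, 70 of 97 had their lowest value in HH13 (background 34.8%). The members are highly expressed genes, so the same was counted among the 4381 genes with a mean of at least 20 FPKM, which include 76 members. There, 3 of 76 members had a difference above 0 for HH13 against HH12 (background 32.6%), and the median was -0.37 over members and -0.18 over all genes of that level. In the same set 59 of 76 members were lowest in HH13 (background 49.3%). With all totals set equal, 9 of 97 members lay above 0 for HH13 against HH12 (background 43.0% under that scaling), and 57 of 97 were lowest in HH13 (background 35.0%). The summed FPKM of the endoderm, erythroid and endothelial marker lists was higher in HH13 than in HH12, as given above. By gene, 15 of 16, 11 of 11 and 16 of 16 measured markers lay above 0, while GATA4 of the endoderm list was at least 2-fold lower. The part of these lists in the lower share of the members was not tested.

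Earlier steps gave smaller shifts that depended on the scaling. Of the 97 members, 57 had a difference above 0 for HH11 against HH10 (background 51.8%) and 56 for HH12 against HH11 (background 50.2%). For HH11 against HH10, 1 of 16 endoderm, 0 of 11 erythroid and 1 of 16 endothelial markers lay above 0. Their medians were -1.18, -2.00 and -0.88. Of the epithelial markers, 10 of 16 lay above 0. The part of these lists in the members' differences was not tested. The HH12 library held the highest value of 47 members (background 19.5%) and HH11 that of 30 (background 28.4%). With all totals set equal this order turned, and 60 of 97 members were highest in HH11 (background 47.6% under that scaling) and 31 in HH12 (background 16.6%). Scaling by the median ratio over genes kept the deposited order. There, 30 of 97 members were highest in HH11 (3397 of 11771 genes in all) and 47 in HH12 (2284 of 11771). From the first to the last stage, HH13 against HH10, 25 of 97 members lay above 0 (background 49.8%), and 16 of 76 did so among genes with a mean of at least 20 FPKM (background 40.9%), where the medians were -0.22 for members and -0.10 for all genes of that level.

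**Figure D1:**
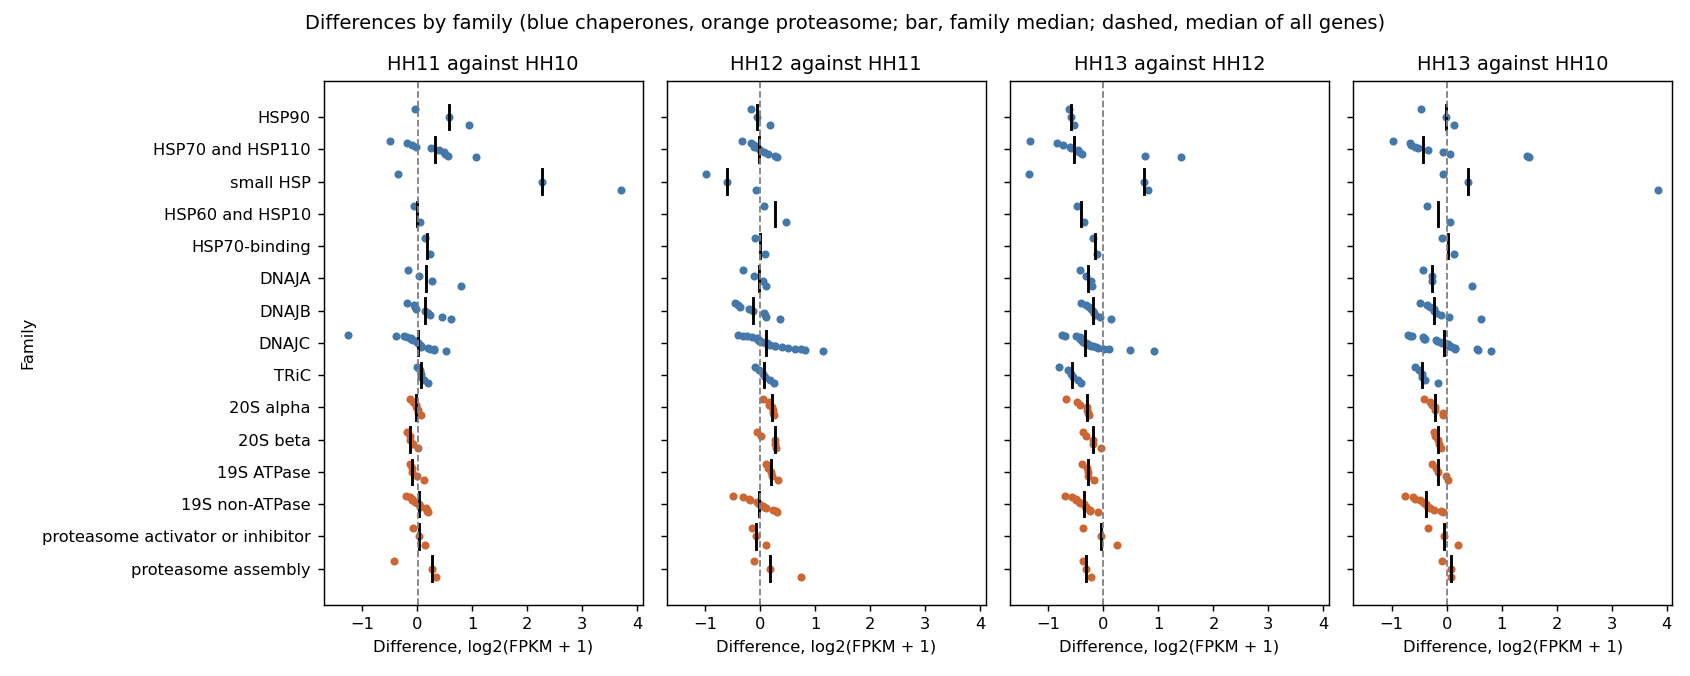
Differences on the log2(FPKM + 1) scale for the 97 measured members, by family, in 4 comparisons of 1 library with another; each point is a gene, the black bar the family median and the dashed line the median of all 11773 genes. In HH13 against HH12 the family medians lie to the left of the dashed line for all families but the small heat shock proteins, and 10 points lie above 0. The small heat shock protein median is over 3 genes, among them HSPB7, which was kept only because it reached 1 FPKM in HH13.

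The HSP90 genes encode the ATP-driven chaperones of kinases, steroid receptors and, in the endoplasmic reticulum, of secreted and membrane proteins. HSP90AA1, the inducible cytosolic form (chromosome 5, 49388166 to 49393962), measured 488, 935, 828 and 533 FPKM from HH10 to HH13. Its value was high in HH11 and HH12 and low at both ends, with differences of 0.94, -0.18 and -0.63 over the successive steps, each under 2-fold. HSP90AB1, the constitutive cytosolic form, gave 511, 497, 560 and 371 FPKM, so it lay nearly level over the first 3 libraries and was lowest in HH13, by -0.59 against HH12. HSP90B1, the form of the endoplasmic reticulum, gave 537, 803, 773 and 533 FPKM, and its HH13 value differed from that of HH10 by -0.01. The ratio of HSP90AA1 to HSP90AB1, which no scaling of libraries can move, was 0.954, 1.88, 1.48 and 1.44. The 2 cytosolic forms were thus near parity in HH10 only. With all totals equal the HH11 against HH10 difference of HSP90AA1 was 1.26, past 2-fold. That scaling also moved the median of all genes, from 0.01 to 0.30.

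Among the HSP70 genes, HSPA8 was the most abundant. It encodes the constitutive cytosolic HSP70 and measured 846, 1200, 1116 and 672 FPKM from HH10 to HH13, a difference of 0.50 at HH11 and of -0.73 at HH13 against HH12. HSPA5, the HSP70 of the endoplasmic reticulum (BiP), measured 503, 743, 688 and 526 FPKM. HSPA9, the mitochondrial HSP70 (mortalin), measured 385, 382, 369 and 243 FPKM. The cytosolic and endoplasmic reticulum forms were thus highest in HH11, while the mitochondrial form was level until HH12 and then lower by -0.60.

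The gene named HSP70 behaved unlike these. The RefSeq gene table lists HSP70 as a synonym of HSPA2. Its row, on chromosome 5 at 52784177 to 52786081, measured 79.5, 112, 135 and 227 FPKM. Each library was higher than the one before, and HH13 was 2.83-fold above HH10 on the log2(FPKM + 1) scale. Relative to HSPA8 its level was 0.0940, 0.0935, 0.121 and 0.338, so the ratio was level from HH10 to HH11 and highest in HH13. In the authors' deposited table its q-value for HH10 and HH13 was 0.235.

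Other HSP70 relatives were lower in level. HSPA14, which works at the ribosome, measured 51.0, 44.5, 46.4 and 25.3 FPKM. Its difference of -0.98 for HH13 against HH10 lay just under 2-fold. HSPA13, a microsomal HSP70, measured 7.04, 4.73, 6.04 and 4.15 FPKM. HSPA12A, a distant HSP70 relative, measured 0.824, 0.714, 0.881 and 4.03 FPKM, so it was above 1 FPKM in HH13 alone, with a difference of 1.42 from HH12. At that level the difference hangs on the constant added before the log, and with 5 in place of 1 it was 0.62.

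The HSP110 proteins and their relatives release ADP from HSP70, which resets it for another client. HSPH1 (chromosome 1, 174262982 to 174286406) measured 24.4, 52.5, 41.7 and 16.0 FPKM. It was high in HH11 and HH12, 2.11-fold above HH10 in HH11 (1.08) and 2.51-fold lower in HH13 than in HH12 (-1.33). HSPA4 measured 47.5, 63.2, 63.0 and 45.3 FPKM. HSPA4L measured 58.9, 70.6, 63.1 and 40.9 FPKM. These relatives were also highest in HH11 and lowest in HH13, with differences under 2-fold. HSPBP1, an exchange factor of another fold, varied little, between 57.3 and 67.2 FPKM, and HSPBAP1, named for binding a small heat shock protein, lay between 2.31 and 3.09 FPKM.

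The small heat shock proteins hold unfolding chains in a soluble state without using ATP, and their median span over the 4 libraries was the widest of the families here. HSPB1 (chromosome 19, 4253518 to 4255722), the HSP27-type gene, measured 0.563, 19.4, 12.4 and 21.4 FPKM. The HH10 library stood apart from the other 3, and HH11 was 13.0-fold higher on the log2(FPKM + 1) scale (3.70). Since the HH10 value is under 1 FPKM, that size hangs on the constant added before the log: the difference was 4.88 with 0.1 and 2.13 with 5. The authors' deposited table gives it a q-value of 0.999 in every pair of stages. HSPB8 (chromosome 15, 9720474 to 9724236), which acts with BAG3 in the disposal of misfolded proteins, measured 8.74, 45.9, 22.6 and 8.28 FPKM. It was highest in HH11, 4.82-fold above HH10 (2.27), and its HH12 and HH13 values were each lower than the one before, with differences of -0.99 and -1.35. Its deposited q-values of 0.0502 for HH10 with HH11 and 0.0540 for HH11 with HH13 were the smallest of any member in those pairs of the authors' deposited table.

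HSPB7, a small heat shock protein of heart and muscle, measured 0.740, 0.362, 0.289 and 1.26 FPKM and reached 1 FPKM in HH13 alone. HSPB2 lay between 0.283 and 0.635 FPKM and HSPB3 between 0.0838 and 0.313 FPKM, so neither reached 1 FPKM in any library. HSPB1 and HSPB8, then, were both higher in HH11 than in HH10 but did not share a course afterwards: at HH13 the first was near its HH11 level and the second near its HH10 level.

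**Figure D2:**
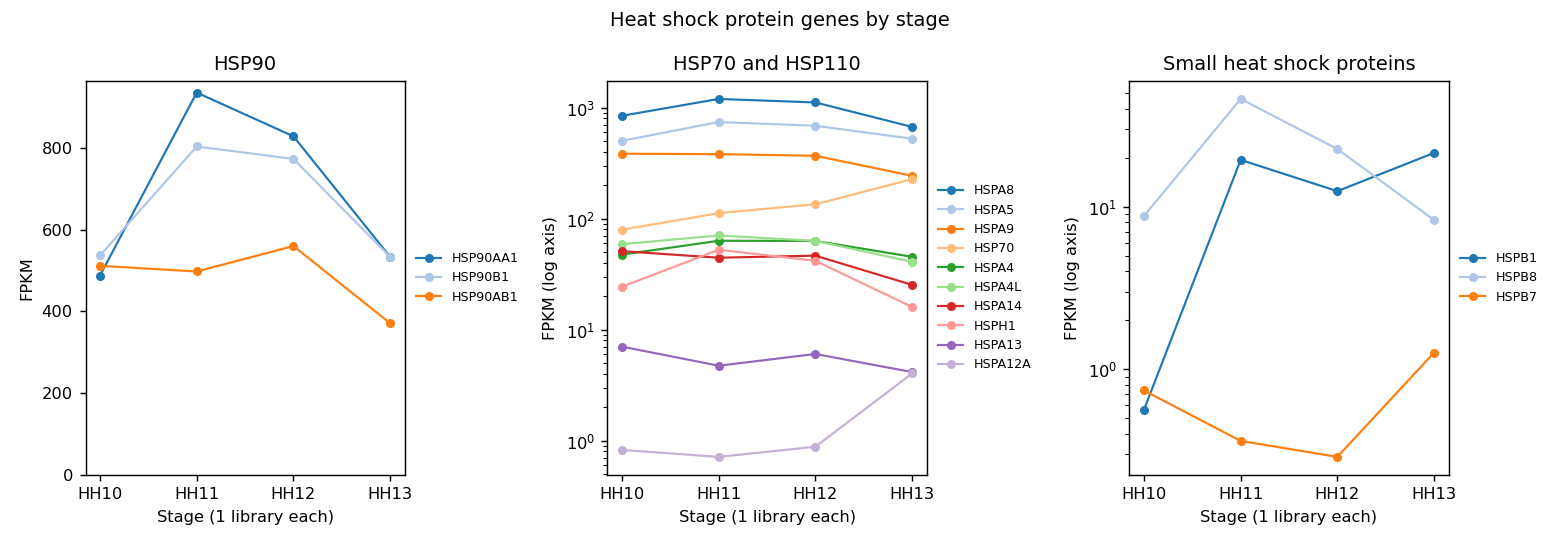
FPKM of the HSP90, HSP70 and HSP110, and small heat shock protein genes in the 4 stages, 1 library each; the FPKM axis is linear from 0 for HSP90 and logarithmic for the other panels. HSP90AA1, HSPA8 and HSPH1 peak in HH11, HSP70 is highest in HH13 at 227 FPKM, and HSPB1 is at 0.563 FPKM in HH10 and at 12.4 FPKM or more in the other libraries.

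The cytosolic chaperonin TRiC folds actin, tubulin and WD-repeat proteins, and 6 of its subunit genes were members. CCT2 and CCT3 were not among them. CCT6 measured 425, 444, 472 and 301 FPKM. TCP1 measured 397, 455, 450 and 300.5 FPKM. CCT7 measured 397, 432, 402 and 291 FPKM. These were the more abundant subunits, between 397 and 472 FPKM until HH12 and between 291 and 301 in HH13. CCT8 measured 328, 328, 389 and 293 FPKM. CCT4 measured 242, 249.8, 258 and 176 FPKM. CCT5 measured 201, 211, 238 and 135 FPKM. In HH13, 6 of 6 subunits were at their lowest (background 34.8%, or 49.3% among genes with a mean of at least 20 FPKM). Their differences from HH12 ran from -0.82 (CCT5) to -0.41 (CCT8), with a median of -0.57. Against HH10 the median was -0.45, and 0 of 6 lay above 0. The background was 49.8%, or 40.9% among genes with a mean of at least 20 FPKM. With all totals equal, 6 of 6 were again lowest in HH13 (background 35.0%).

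The mitochondrial chaperonin consists of the HSP60 barrel, encoded by HSPD1, and the HSP10 lid, encoded by HSPE1. HSPD1 measured 881, 917, 956 and 689 FPKM. HSPE1, summed over 2 rows of which the second never reached 1 FPKM, measured 1119, 1071, 1490 and 1161 FPKM and was the most abundant member. The genes are neighbours on chromosome 7, 3065 bases apart. Their ratio, HSPD1 to HSPE1, was 0.787, 0.856, 0.642 and 0.593, so the pair did not keep a fixed proportion: HSPE1 was 0.48 higher in HH12 than in HH11, where HSPD1 differed by 0.06.

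**Figure D3:**
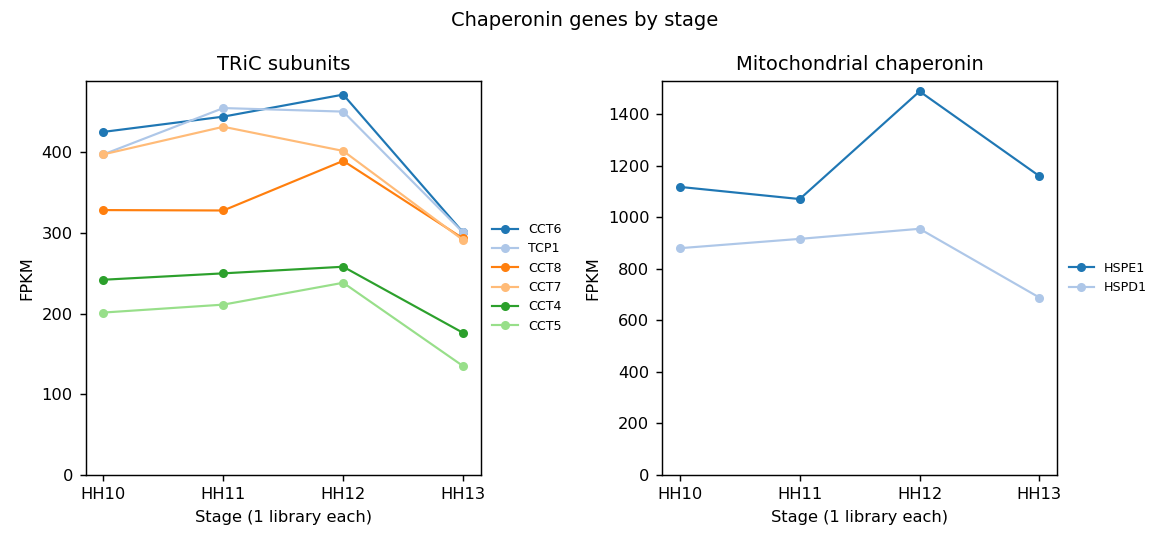
FPKM of the 6 TRiC subunit genes (left) and of the mitochondrial chaperonin genes HSPD1 and HSPE1 (right) in the 4 stages, 1 library each, on linear axes from 0. The 6 TRiC lines lie within a narrow band of change until HH12 and are lowest in HH13, where CCT5 is at 135 and CCT6 at 301 FPKM.

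Of the 37 DNAJ co-chaperone genes, which stimulate the ATPase of HSP70 through their J domain, 35 were measured. DNAJB13 reached no more than 0.495 FPKM and DNAJC5B no more than 0.0213 FPKM. For HH13 against HH12, 30 of the 35 were lower and 5 higher (background 49.5% higher), with a median of -0.26 where that of all genes was -0.00. Among all genes with a mean of at least 20 FPKM, 32.6% were higher and the median was -0.18. The general cytosolic co-chaperone DNAJA2 was the most abundant, at 196, 174, 181 and 146 FPKM. DNAJA1, on chromosome Z, measured 62.3, 75.5, 60.8 and 51.6 FPKM and was higher in HH11 than in HH10 by 0.27. DNAJA3, a mitochondrial co-chaperone, measured 76.0, 78.2, 84.5 and 62.6 FPKM. DNAJA4 stood out in this class: it measured 17.6, 31.2, 28.6 and 24.6 FPKM, a difference of 0.79 at HH11, and 1.10 with all totals equal. Under that scaling the median of all genes at HH11 was 0.30.

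Among the DNAJB genes, DNAJB2, known from neurons, measured 23.8, 37.2, 33.9 and 37.3 FPKM. It was low in HH10 alone, and its difference of 0.62 for HH11 against HH10 was the largest of its class at that step. DNAJB9 and DNAJB11 serve BiP in the endoplasmic reticulum. DNAJB9 measured 18.3, 25.3, 18.2 and 15.8 FPKM, and DNAJB11 was the most abundant DNAJB gene at 103, 101, 106 and 80.0 FPKM. DNAJB6 measured 33.4, 32.0, 41.4 and 34.4 FPKM, and DNAJB12, DNAJB14 and DNAJB4 spanned 0.31, 0.17 and 0.48 over the 4 libraries. DNAJB5, on chromosome Z, and DNAJB8 did not exceed 1.70 FPKM.

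The DNAJC genes are the most diverse class, since their J domain is joined to domains of other function. DNAJC6, auxilin, which uncoats clathrin vesicles, measured 2.49, 0.462, 2.24 and 5.13 FPKM. It was low in HH11 and high in HH13, with differences of -1.25, 1.15 and 0.92 over the steps, and all of these rest on values of at most 5.13 FPKM. With 5 added before the log, its first 2 differences were -0.46 and 0.41. DNAJC19, part of the motor that imports proteins into mitochondria, measured 23.9, 24.7, 44.1 and 35.3 FPKM and was 0.81 higher in HH12 than in HH11. DNAJC15, a paralogue of DNAJC19, measured 35.0, 32.1, 50.1 and 30.6 FPKM, and was likewise highest in HH12, by 0.62 against HH11. DNAJC12 measured 4.28, 4.02, 7.42 and 6.83 FPKM, a difference of 0.75 at the same step.

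DNAJC2, which sits on the ribosome as the partner of HSPA14, measured 71.2, 72.0, 73.9 and 43.2 FPKM. It was level to HH12 and lower in HH13 by -0.76, beside -0.85 for HSPA14. This pair was put side by side after the values were seen. DNAJC8, a splicing-associated protein, was the most abundant DNAJC gene at 111, 114, 138 and 102 FPKM. DNAJC5, the cysteine string protein of secretory vesicles, measured 16.4, 13.7, 10.1 and 14.5 FPKM and was the DNAJC gene with its lowest value in HH12. DNAJC27 varied least, from 8.98 to 9.46 FPKM. DNAJC24, which takes part in making diphthamide, measured 24.1, 34.9, 33.5 and 24.8 FPKM, and DNAJC11, a protein of mitochondrial cristae, 58.1, 44.5, 48.6 and 44.1 FPKM. The other 12 measured DNAJC genes spanned between 0.20 and 0.71 on the log2 scale.

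**Figure D4:**
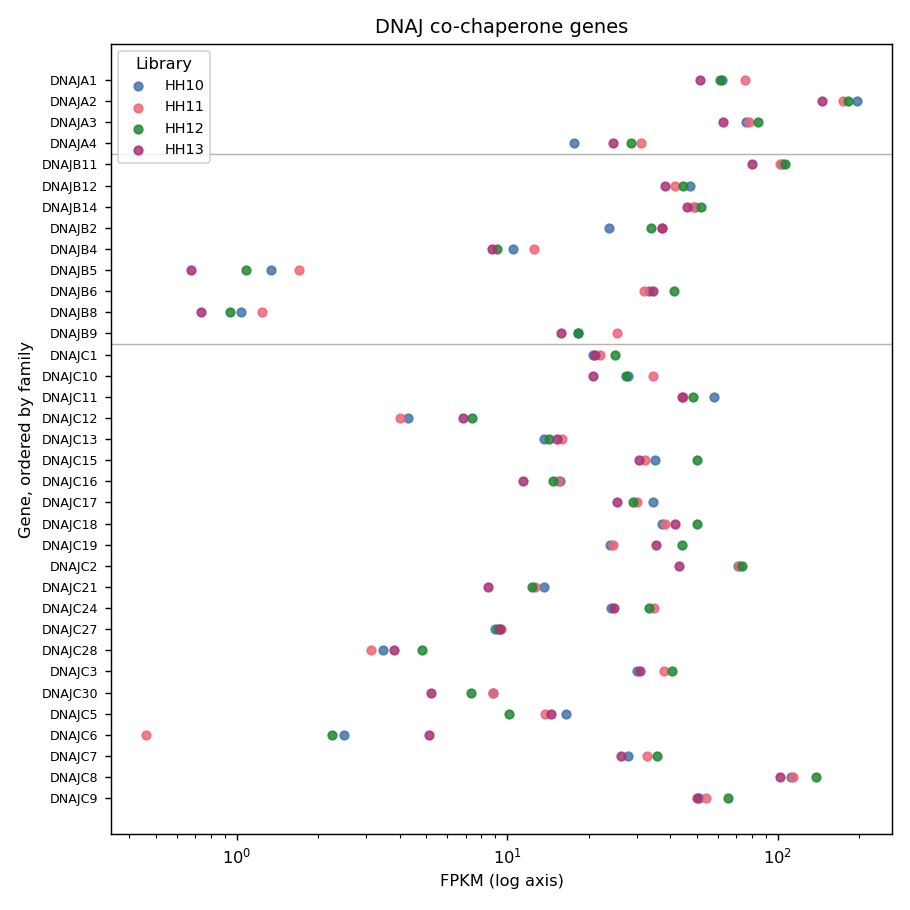
FPKM of the 35 measured DNAJ genes on a logarithmic axis, by class (DNAJA, DNAJB, DNAJC from top to bottom, divided by grey lines); each point is 1 library, coloured by stage. For most genes the 4 points lie close together, while DNAJC6 runs from 0.462 FPKM in HH11 to 5.13 in HH13 and DNAJA4 and DNAJB2 have their lowest point in HH10.

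The chaperones were also grouped by compartment after the values were seen, so the groups below describe the chosen genes only. The 8 chaperone genes taken for the endoplasmic reticulum were HSP90B1, HSPA5, HSPA13, DNAJB9, DNAJB11, DNAJC1, DNAJC3 and DNAJC10. They summed to 1247, 1772, 1684 and 1231 FPKM. Most of the sum came from HSP90B1 and HSPA5, at 803 and 743 FPKM in HH11. Of the 8 genes, 6 were higher in HH11 than in HH10 (background 51.8%), with a median of 0.31 where that of all genes was 0.01. DNAJB12, DNAJB14 and DNAJC16, also of the endoplasmic reticulum, were not in this group. Their differences at that step were -0.18, -0.03 and -0.02, so the count and the median depend on which genes were taken. The 9 mitochondrial genes summed to 2589, 2561, 3054 and 2274 FPKM, with a median of -0.01 at HH11 and 7 of 9 higher in HH12 than in HH11 (background 50.2%). HSPE1 alone measured 1071 FPKM in HH11 and 1490 in HH12. With all totals equal the HH11 medians were 0.62 and 0.29, where that of all genes was 0.30, so the mitochondrial median was near the background. Under that scaling 4 of the 9 mitochondrial genes were higher in HH12 than in HH11, beside 4472 of 11754 genes in all. From HH12 to HH13, 0 of 8 and 0 of 9 were higher. The background was 49.5%, or 32.6% among genes with a mean of at least 20 FPKM.

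The 20S core of the proteasome is built from rings of alpha subunits, which gate the chamber, and of beta subunits, which line it. Its 12 member genes summed to 3081, 2952, 3402 and 2715 FPKM. The 7 alpha genes ran together. In the values as deposited 7 of 7 were highest in HH12 (background 19.5%) and 7 of 7 lowest in HH13 (background 34.8%). With all totals equal these became 6 of 7 (background 16.6%) and 5 of 7 (background 35.0%). As deposited, 49.3% of all genes with a mean of at least 20 FPKM were lowest in HH13. PSMA3 was the most abundant of them at 325, 322, 378 and 271 FPKM. PSMA4 had the largest difference for HH13 against HH12, at 251, 255, 303 and 187.5 FPKM (-0.69). PSMA7 was the least abundant at 71.8, 67.9, 76.3 and 61.6 FPKM, on a locus that 3 rows share, so its level is less certain.

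Among the beta subunits, PSMB7, which carries the trypsin-like cutting site, was the most abundant proteasome gene, at 520, 494, 592 and 474 FPKM. PSMB1, which has no cutting site, measured 294, 268, 326 and 253 FPKM. PSMB3 measured 296, 260, 314 and 277 FPKM. PSMB4 measured 323, 297, 300.2 and 290 FPKM and had its highest value in HH10. PSMB2 was the least abundant at 51.3, 52.0, 50.0 and 43.5 FPKM. The 5 genes thus differed more in level than any did between stages: the coefficient of variation over the 5 was 56.0% in HH10 and 57.3% in HH13. For HH13 against HH12, 0 of the 12 core genes were higher. The background was 49.5%, or 32.6% among genes with a mean of at least 20 FPKM.

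The 19S cap has a ring of ATPases at its base, encoded by the PSMC genes, and non-ATPase subunits that bind, scaffold and deubiquitinate, encoded by PSMD genes. The 5 ATPase genes were more even in level than the TRiC genes: over them the coefficient of variation was 14.7% in HH10 and 14.0%, 12.2% and 10.2% in the later libraries, and over the 6 TRiC genes it was between 26.6% and 30.0%. PSMC1 was the most abundant at 236, 221, 239 and 196 FPKM. PSMC3 measured 160, 160, 178 and 158 FPKM and PSMC6 185, 173, 216 and 165 FPKM. In HH12, 5 of 5 were at their highest (background 19.5%), which became 4 of 5 with all totals equal (background 16.6%). PSMC2 measured 185, 203, 232 and 189 FPKM and was the ATPase gene not lowest in HH13. It lies 253 bases from DNAJC2 on chromosome 1 (the one ends at 12804232, the other starts at 12804486), and the neighbours differed in their HH13 against HH12 values, -0.29 for PSMC2 and -0.76 for DNAJC2.

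Of the 13 PSMD genes, 13 of 13 were lowest in HH13 (background 34.8%), and 11 of 13 with all totals equal (background 35.0%). Among genes with a mean of at least 20 FPKM the share lowest in HH13 was 49.3%. PSMD3, a lid subunit, was the most abundant at 359, 409, 354 and 276 FPKM. PSMD2, a large base subunit that receives shuttle factors, measured 213, 244, 173 and 139 FPKM. It was highest in HH11 and had the largest lower value of the class at HH12, by -0.49. PSMD11, a lid scaffold, measured 190, 197, 159 and 112 FPKM and had the largest difference of any proteasome gene for HH13 against HH10, -0.76. PSMD7, the partner of the deubiquitinase in the lid, measured 221, 222, 271 and 167 FPKM, with -0.70 for HH13 against HH12. PSMD14, the deubiquitinase itself, measured 134.5, 126, 135 and 99.8 FPKM.

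Other PSMD genes followed the same end. PSMD1, the other large base subunit, measured 158, 136.5, 133 and 124 FPKM and was highest in HH10. PSMD5, PSMD9 and PSMD10, which act as chaperones when the base is assembled, had means of 19.9, 93.5 and 72.7 FPKM and differences for HH13 against HH12 of -0.57, -0.25 and -0.32. PSMD4, a ubiquitin receptor, was listed at only 6.11, 7.01, 6.70 and 5.09 FPKM, on a locus that 22 rows share, with a second row at 0 in each library. Its level is uncertain for that reason. PSMD12 also had a second row at 0 throughout and measured 28.0, 25.5, 22.3 and 18.6 FPKM.

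The sum over the 19S genes relative to that over the 20S genes was 0.909, 0.966, 0.854 and 0.830. These sums cover the member genes only, without PSMB5, PSMB6, PSMC4 and PSMD8. The 19S sum also holds PSMD5, PSMD9 and PSMD10, which act as chaperones in assembly of the base. The sums therefore do not give the proportion of whole caps to cores. The chaperone sum relative to the proteasome sum was 1.43, 1.71, 1.63 and 1.48. Both ratios, which are free of library scaling, were highest in HH11.

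Regulators of the proteasome spanned 0.18 to 0.37 over the 4 libraries on the log2 scale, and its assembly factors 0.43 to 0.73. The PSMD genes spanned 0.25 to 0.81. PSME3, the nuclear activator PA28 gamma, measured 142, 135, 146 and 113 FPKM. PSME4, the activator PA200, measured 18.3, 20.2, 18.2 and 17.7 FPKM. PSMF1, the PI31 protein first described as an inhibitor of the 20S core, measured 37.0, 38.1, 35.9 and 42.7 FPKM. It was the proteasome gene with a higher value in HH13 than in HH12 (0.25), 1 of 36 (background 49.5%). Among genes with a mean of at least 20 FPKM the background was 32.6%. The assembly chaperones PSMG1 and PSMG2 work as a pair on the alpha ring. PSMG1 measured 18.2, 23.5, 21.8 and 17.2 FPKM, and PSMG2 33.3, 40.5, 45.9 and 35.1 FPKM. PSMG3, of the second assembly pair, measured 75.3, 55.8, 93.4 and 79.2 FPKM, low in HH11 and high in HH12, with the largest difference of any proteasome gene at that step, 0.73.

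**Figure D5:**
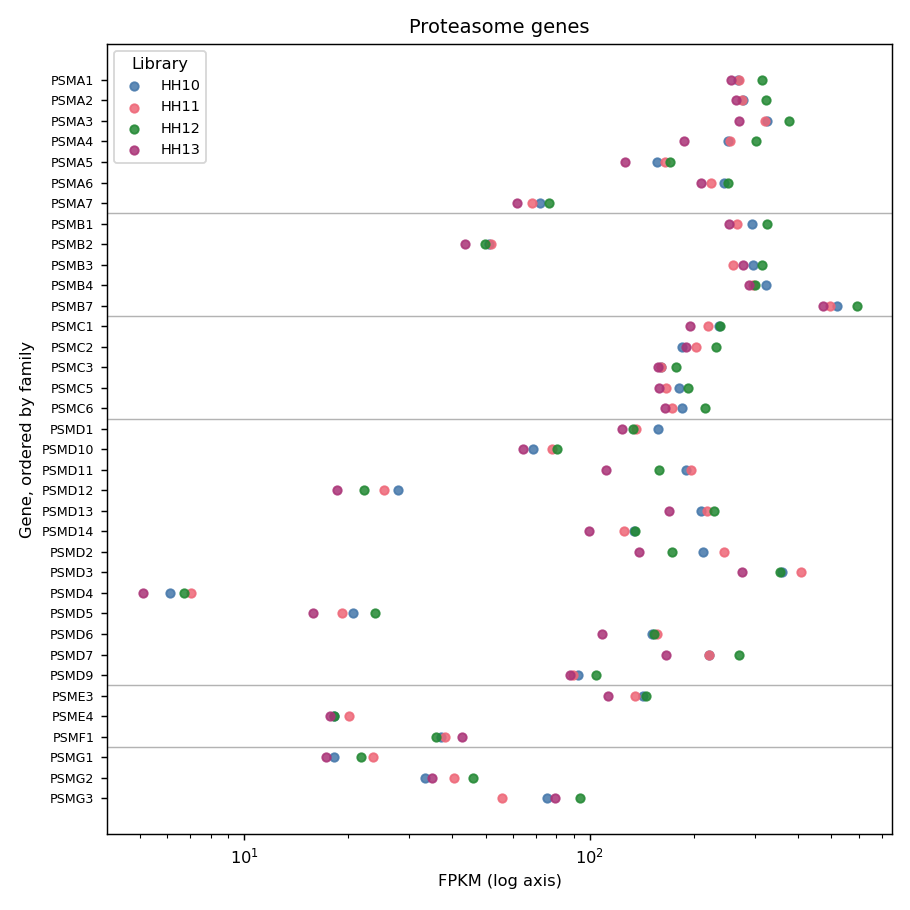
FPKM of the 36 proteasome genes on a logarithmic axis, in the order alpha, beta, ATPase, non-ATPase, activator or inhibitor, and assembly genes, divided by grey lines; each point is 1 library, coloured by stage. The HH13 point is the leftmost for 31 of the 36 genes, and no gene spans 2-fold. The background for that count is 34.8%, or 49.3% among genes with a mean of at least 20 FPKM. With all totals equal the count is 24 of 36 (background 35.0%).

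The authors' own comparisons call none of these differences. At a q-value under 0.05 in the authors' deposited table, 0 of 104 member rows passed in any of the 6 pairs of stages. Few rows passed at all: 42 of 17108 for HH10 with HH11 (background 0.245%), 40 for HH10 with HH12 (0.234%), 112 for HH10 with HH13 (0.655%), 21 for HH11 with HH12 (0.123%), 198 for HH11 with HH13 (1.16%) and 57 for HH12 with HH13 (0.333%). The count of 0 is therefore near the background. Those q-values rest on 1 library per stage.

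Genes that work with the members were counted from 6 lists. For HH11 against HH10 these counts stand beside the 51.8% of all genes above 0 given earlier, or 75.4% with all totals set equal. Of the 29 measured co-chaperones, cyclophilins and heat shock factors, 21 were higher in HH11 than in HH10 (26 with all totals equal), with a median of 0.17 where that of all genes was 0.01. The heat shock factor HSF1 measured 41.9, 45.3, 39.6 and 31.4 FPKM. HSF2 measured 39.7, 35.7, 34.6 and 24.0 FPKM, and HSF3 11.8, 10.7, 9.46 and 8.77 FPKM. Each of these factors was lowest in HH13. The HSP90 co-chaperones STIP1 (180, 250.4, 174 and 147 FPKM) and AHSA1 (86.7, 125, 117 and 88.3 FPKM) were highest in HH11, and BAG3, the partner of HSPB8, measured 30.8, 44.8, 38.6 and 34.9 FPKM. Not all of the list did so. FKBP4 (219, 264, 274 and 172 FPKM) and PPID (150, 163, 179 and 108 FPKM) were highest in HH12, and CHORDC1 and SUGT1 were lower in HH11 than in HH10. PPIA, cyclophilin A, was the most abundant gene of the list at 4345, 5106, 4395 and 3853 FPKM.

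SERPINH1, the collagen chaperone HSP47 of the endoplasmic reticulum, was the sole gene of that list at least 2-fold apart in any of the 4 comparisons. It measured 14.5, 62.6, 51.8 and 106 FPKM. Its difference was 2.04 for HH11 against HH10 and 1.02 for HH13 against HH12. Like HSPB1, it was lowest in HH10 and highest in HH13.

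In the list of folding and stress genes of the endoplasmic reticulum, 52 genes were measured, 3 of them members. Of the 52, 38 were higher in HH11 than in HH10, with a median of 0.23 (51 with all totals equal). The calcium-binding chaperone CALR measured 1473, 1927, 2068 and 1533 FPKM. Of the list, 1 gene was at least 2-fold higher in HH13 than in HH12 (background 8.53%). This was CHAC1, a glutathione-degrading enzyme of the stress response, at 1.03, 1.39, 2.54 and 6.72 FPKM. The oxidase ERO1L was lowest in HH13, at 12.2, 16.0, 16.0 and 8.10 FPKM.

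The 13 mitochondrial partners had a median of -0.23 for HH13 against HH12, where that of all genes was -0.00. Among all genes with a mean of at least 20 FPKM the median was -0.18. TRAP1, the mitochondrial HSP90, measured 126.5, 146, 139 and 84.8 FPKM, and the protease YME1L1 went the other way at 91.8, 70.1, 94.7 and 126 FPKM. The 11 measured genes of prefoldin, tubulin cofactors and other TRiC partners such as PDCL and URI1 had a median of -0.37 at that step. That of TRiC was -0.57. PFDN1, a prefoldin subunit, measured 158, 173, 224 and 291 FPKM and so was highest in the library in which the TRiC genes were lowest. TBCA, a tubulin cofactor on chromosome Z, measured 44.1, 19.2, 28.0 and 27.1 FPKM, a difference of -1.16 at HH11.

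Among 40 measured genes of the ubiquitin system, the median for HH13 against HH10 was -0.23, where that of all genes was 0. Over all genes with a mean of at least 20 FPKM it was -0.10. Of the 40, 2 genes were at least 2-fold lower, near the background of 4.06%. VCP, the ATPase that pulls tagged proteins out of complexes, measured 288, 148, 134 and 107 FPKM (-1.41). TXNL1, a thioredoxin bound to the 19S cap, measured 167, 84.5, 106 and 70.2 FPKM (-1.24). Both lie on chromosome Z, as does TBCA, and the first step of each was lower, beside the median of -0.51 over the 536 measured Z genes given above. The part of the sex chromosomes in these differences was not tested. UBB, a polyubiquitin gene, was higher in HH12 and HH13, at 733, 764, 1180 and 1105 FPKM, and AKIRIN2, which brings proteasomes into the nucleus, measured 173, 197, 160 and 94.2 FPKM. POMP, the assembly factor of the 20S core, measured 134, 154, 201 and 136 FPKM, highest in HH12.

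Immediate early genes, which respond within minutes to handling and stress, were listed for comparison. Of 14 measured, 11 were higher in HH11 than in HH10, with a median of 0.45 (13 with all totals equal). JUN measured 30.2, 66.2, 53.7 and 41.4 FPKM and KLF6 8.55, 20.1, 15.5 and 15.2 FPKM, each at least 2-fold higher in HH11. EGR1 measured 4.25, 3.08, 8.08 and 26.4 FPKM and CTGF 5.09, 5.75, 8.22 and 31.6 FPKM, each at least 2-fold higher in HH13 than in HH12. JUN and KLF6 thus stood highest in the library in which HSP90AA1, HSPH1 and HSPB8 did. EGR1 and CTGF stood highest in HH13, as did the members HSP70 and HSPB1. The list as a whole summed to 212.8, 309.5, 283.9 and 310.2 FPKM from HH10 to HH13. These examples were picked with their values in view, and the part of handling in those values was not tested.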

How the data were processed

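Values in the deposited table are FPKM for each gene in each library, with the authors' p-value and q-value for each pair of stages, per the file headers. TopHat2 2.0.8, Cufflinks, Cuffdiff and build galGal4 are named in the submitters' processing notes; these do not state the annotation or library scaling. FPKM values are not counts, so depth is unknown and no count test or counting interval was possible. An exact 0 can be a failed estimate. Starts are printed 1 higher than deposited.

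Rows of 1 symbol were summed. Genes with at least 1 FPKM in 1 library were kept and compared as log2(FPKM + 1), in 4 comparisons, by size and with no test. The counting script was tested on simulated data. Python 3.11.15, pandas 2.3.3, numpy 2.4.6 and matplotlib 3.10.9 were used. Of the members, 14 lie on a locus shared with another row and 100 of 101 matched the RefSeq gene table by symbol or synonym. Those on a shared locus include HSPA8, CCT6, TCP1, PSMA7, PSMC5, PSMD1 and PSMD4, so their levels and ranks are less certain.

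Members and lists were chosen with earlier results of these data known. Named genes are members at least 2-fold apart with at least 5 FPKM in 1 library, the most abundant and most changed of each family and list, and the HSP90, HSP70 and TRiC genes; the remaining examples were picked with their values in view. Alternative settings concerned pseudocounts, filters, scalings, rows per symbol, sex chromosomes and the fold threshold. Sequences were not used here.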

Additional observations from a re-analysis of the deposited data

How the results depend on the processing

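No paired analysis was possible because each stage has 1 library, and no library could be left out of a comparison for the same reason. With a pseudocount of 0.1 in place of 1, 1 member was at least 2-fold lower in HH12 against HH11 (0 as reported), 3 were higher in HH13 against HH12 (1 as reported) and 1 was lower in HH13 against HH10 (0 as reported). With a pseudocount of 5, 0 were lower in HH11 against HH10, 0 higher in HH12 against HH11 and 0 higher in HH13 against HH12 (1 as reported in each); a filter of 5 FPKM also left 0 higher in HH13 against HH12. With all totals equal, with or without globin and ribosomal RNA, 5 members were higher in HH11 against HH10 (3 as reported), HSP90AA1 and DNAJA4 being added, and 1, HSPB8, was lower in HH12 against HH11. That scaling moved the HH11 against HH10 median of all genes from 0.01 to 0.30, or to 0.22 without globin and ribosomal RNA. A 1.5-fold threshold gave 6 higher in HH11 against HH10, 5 higher and 2 lower in HH12 against HH11, 5 higher and 14 lower in HH13 against HH12, and 5 higher and 8 lower in HH13 against HH10. No share of all genes past these thresholds is given for the changed settings, so these counts have no background and describe the members alone. With HH13 set against HH11 in place of HH10, chosen after the data were seen, 2 members were lower (0 as reported), and the chaperone median lay -0.29 from that of all genes (-0.17 as reported). The cause of these shifts was not tested. The other 136 of 156 recomputed counts and median gaps stayed within 1.5 times or 0.1 of the reported value, with the highest row per symbol and without Z, W and unplaced scaffolds among them. Of the differences of the 69 named members, 2176 kept their side of 2-fold, 11 passed it, 5 lost it and 0 turned. Depth is unknown, so for members under 5 FPKM (HSPB1 in HH10, HSPA12A, DNAJC6) the precision cannot be given.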
